A study of Mus musculus with 18 samples.

Results

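The genes described here are 33 members of the lipogenic and sterol synthesis programme that the SREBP transcription factors control, chosen by gene symbol from a list of the SREBP machinery, fatty acid synthesis, and cholesterol synthesis and transfer. Of the 33, 32 were among the 17672 genes of the deposited table, and all 32 passed the filter on low counts, which kept 10178 genes. They comprised 6 regulators (Srebf1, Srebf2, Scap, Insig1, Insig2 and Mlxipl), 11 genes of the fatty acid arm and 15 genes of the sterol arm. Hmgcs1 was not analysed here.

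RNA was measured in a mouse brown adipocyte line, made from brown preadipocytes immortalised with a viral large T antigen and differentiated in culture, with indomethacin (0.125 mM) in the medium of days 0 to 2. All 18 libraries came from cells that stably carried an shRNA against Abhd5, whose product switches on the lipase ATGL, and an inducible, shRNA-resistant and mCherry-tagged ABHD5. Cells without doxycycline (Dox) were therefore ABHD5 knockdown cells. Cells given 1 µg/ml Dox, labelled WT, had ABHD5 restored from the construct on the same knockdown background. The general protocol gives 24 to 48 h of Dox, and the study's figure legend for this experiment gives 24 h. Each state was treated for 3 h with the vehicle DMSO, with 10 nM isoproterenol (ISO), a β-adrenergic agonist, or with 20 µM SR-3420, a synthetic ABHD5 ligand that starts lipolysis without the agonist. This gave 6 groups of 3 replicates from 1 engineered line. The study's methods describe its RNA-seq replicates as independent experiments, and the labels do not say whether a replicate number marks the same experiment in every group. No Dox-treated cells without the construct were included, so an effect of Dox itself and one of restored ABHD5 cannot be told apart.

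Libraries held 689910 to 1956565 counts. The study's methods describe counting with a whole-gene setting, while the length the table gives for counting was within 10% of the annotated intron length for 22 of the 32 genes, so the share of spliced and unspliced RNA in the values is not settled here. Levels are given as CPM, counts per 1000000 counts of a library whose size was scaled by its TMM factor. Abhd5 itself lay between 47.2 and 55.8 CPM in DMSO, 129.9 and 173 CPM in ISO and 70.9 and 78.5 CPM in SR-3420 without Dox, and between 484 and 656, 808 and 859, and 575 and 849 CPM with Dox, in the direction of the labels. Reads of the construct and of the endogenous gene cannot be told apart, and no cells without the knockdown were included. Replicate 1 of SR-3420 with Dox stood apart, since 10 genes held 35.6% of its counts against 16.3% to 26.5% in the other libraries, and the counts of members called, and the medians of the sterol arm, in comparisons with that group are given with and without it, while values of single genes and of the other lists include it unless stated. Of 12 marker genes of brown adipocytes, 10 were in the table and tested. Their summed level lay between 1719 and 1943 CPM in DMSO, 1976 and 2430 CPM in ISO and 2384 and 2693 CPM in SR-3420 without Dox, and between 2144 and 2243, 3872 and 4685, and 3055 and 3767 CPM with Dox. Macrophage markers summed to between 4.5 and 20.2 CPM in every library, with no call for Cd68, the one tested, and Emr1, Csf1r, Itgam, Ptprc and Lyz2 were at 0 in 9 to 17 of the 18 libraries. Preadipocyte or fibroblast markers were present, at 509 to 1177 CPM in sum, mostly from Col1a1 (190 to 466 CPM) and Col3a1 (214 to 538 CPM). Pdgfra was at 17.7 to 37 CPM, and Cd34, Thy1 and Dpp4 were at 0 in 13, 16 and 17 libraries. Of the 5 tested, ISO raised 1 and lowered 1 without Dox and lowered 2 with Dox, 1 was higher and 1 lower in ISO than in SR-3420 with Dox, and the other comparisons called none.

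SREBPs are made as precursors in the membrane of the endoplasmic reticulum. When membrane sterols are scarce, SCAP escorts them to the Golgi, where proteases release the domain that enters the nucleus, and when sterols are plentiful the INSIG proteins hold SCAP back. SREBP2, from Srebf2, mainly drives sterol synthesis and SREBP1c, from Srebf1, mainly fatty acid synthesis, in which the glucose-sensing factor ChREBP, from Mlxipl, also takes part. Nuclear SREBPs commonly act with NF-Y, which binds the sequence CCAAT. In brown fat, adrenergic stimulation is known to raise both the breakdown of stored fat and its resynthesis.

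Under ISO, 6 of the 15 sterol genes rose and none fell in knockdown cells, where 14.5% of all genes tested were called higher and 13.5% lower. In rescued cells 1 rose and 3 fell, against 16.4% higher and 16.1% lower. The difference in response itself was called for 4 of the 15, each lower with Dox, against 0.57% of all genes, and with library totals as the only scaling for none. The summed level of the 15 was 930 ± 112 CPM in DMSO and 1525 ± 348 CPM in ISO without Dox (SD, n = 3). With Dox, the sum was 791 ± 54.6 CPM in DMSO, 661 ± 139 CPM in ISO and 560.3 ± 65.2 CPM in SR-3420 (SD, n = 3), beside 986 ± 145 CPM in SR-3420 without Dox. In SR-3420 with Dox, replicate 1 was at 498 CPM and the others at 628 and 554 CPM. Each rescued library under ISO or SR-3420 lay between 498 and 788 CPM, below every one of the knockdown libraries under the same treatment (875 to 1906 CPM). The fatty acid arm without Scd1 summed to 2076 ± 113, 2691 ± 136 and 1947 ± 28.4 CPM without Dox and 1715 ± 147, 1571 ± 192 and 1467 ± 182 CPM with Dox in DMSO, ISO and SR-3420 (SD, n = 3). For this sum each rescued library lay below each knockdown library under the same treatment, with 1362 to 1738 against 2569 to 2837 CPM in ISO. The ranges were 1309.5 to 1666 against 1918 to 1975 CPM in SR-3420 and 1546 to 1815 against 1959 to 2185 CPM in DMSO. With Scd1, the arm summed to 4534 ± 448, 10271 ± 1565 and 4889 ± 19.1 CPM without Dox in DMSO, ISO and SR-3420 (SD, n = 3). With Dox that sum was 3808 ± 433, 7623 ± 1067 and 3931 ± 1030 CPM (SD, n = 3). Its SR-3420 libraries then overlapped between the states. The arms were not tested against each other. The regulators, dominated by Srebf1 and Insig1, were lowest in ISO in both states, at 2170.2 ± 107 CPM without Dox and 1807 ± 309 CPM with Dox (SD, n = 3). In bulk RNA, fewer cells that express a gene and less RNA per cell cannot be told apart.

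**Figure D1:**
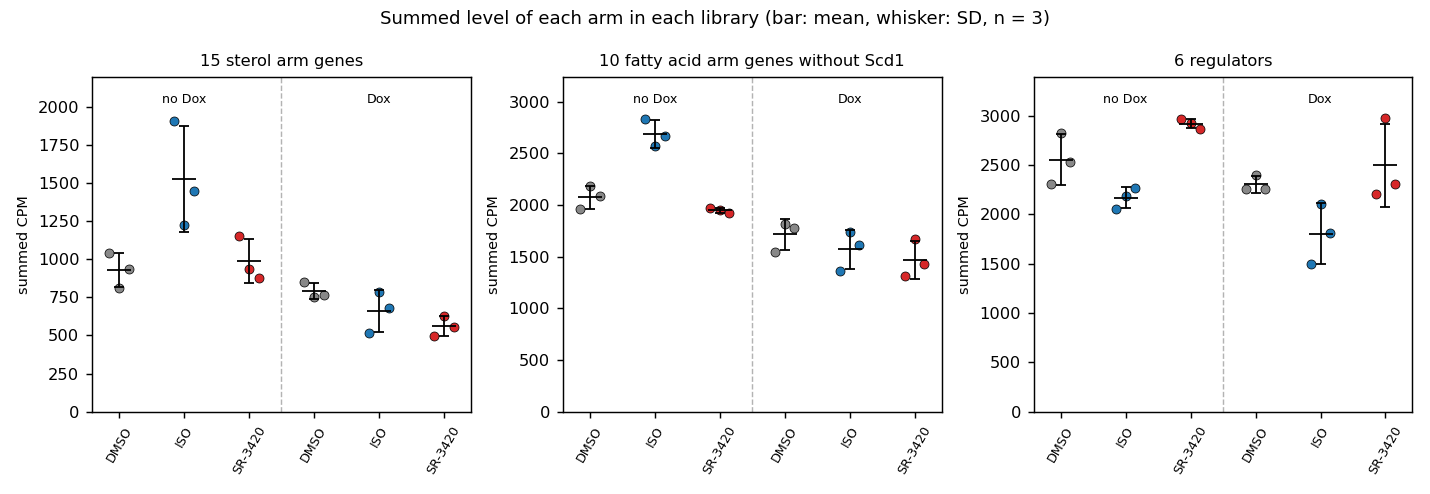
Summed CPM (y axis) of the 15 sterol genes, the 10 fatty acid genes other than Scd1 and the 6 regulators in each library, for DMSO, ISO and SR-3420 without and with Dox. Points are libraries, bars means and whiskers SDs of 3 libraries, and the sterol sum reaches 1906 CPM in ISO without Dox but at most 788 CPM in ISO with Dox.

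The first comparison asked how the agonist acts when ABHD5 is depleted. In knockdown cells ISO raised 11 of the 32 genes and lowered 1, at an adjusted p of 0.05 or less, beside the 14.5% of all genes tested called higher and the 13.5% called lower. The genes raised were Srebf2, 4 of the 11 fatty acid genes (Scd1, Acaca, Elovl5 and Elovl6) and 6 of the 15 sterol genes (Hsd17b7, Pmvk, Cyp51, Mvd, Nsdhl and Fdps), and the gene lowered was Mlxipl. Hsd17b7, a sterol ketoreductase, had the largest log2 fold change, 2.35, followed by the desaturase Scd1 at 1.63 and the mevalonate pathway kinase Pmvk at 1.21. The median log2 fold change was 0.48 for the sterol arm and 0.32 for the fatty acid arm, beside -0.01 for all genes tested. Scd1, Acaca, Elovl5, Hsd17b7, Pmvk and Cyp51 were called in each of the 6 fits that left out 1 library. With library totals as the only scaling 5 members were higher and 2 lower, and Srebf2, Elovl5, Elovl6, Fdps, Mvd and Nsdhl lost their calls, of which DESeq2 also lost Elovl6 and Mvd. Without ISO replicate 1, 6 members were called, and the calls of Srebf2, Mlxipl, Elovl6, Fdps, Mvd and Nsdhl were lost (adjusted p up to 0.0832, 0.0637, 0.267, 0.132, 0.195 and 0.169 over the 6 fits). Srebf2 was also lost without DMSO replicate 2, Fdps and Mvd without DMSO replicate 2 or 3 or ISO replicate 3, and Elovl6 and Nsdhl without any 1 of the DMSO libraries or ISO replicate 3.

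In rescued cells ISO raised 4 members and lowered 7, against 16.4% of all genes higher and 16.1% lower. Scd1, Acaca and Elovl5 rose again, as did Hsd17b7, and the genes lowered were Mlxipl, Acly, Fads1, Fads2, Fdft1, Mvk and Tm7sf2. The log2 fold change of Scd1 was 1.53 and that of Hsd17b7 1.10, while the sterol enzymes Tm7sf2, Mvk and Fdft1 stood at -1.54, -1.12 and -0.80. The median of the sterol arm was -0.44 and that of the fatty acid arm -0.14, beside -0.02 for all genes. Acly lost its call without DMSO replicate 1 or 3 or ISO replicate 2 or 3 (adjusted p up to 0.0898), and the other 10 kept theirs in all 6 fits that left out a library. Same-numbered replicates deviated together here, and a fit with replicate number as a block called 11 genes lower, adding Srebf1 (-0.44, adjusted p 0.00595), Fasn (-0.32, 0.0334), Fdps (-0.41, 0.0341) and Ebp (-0.78, 0.0337). All of the 10 brown adipocyte markers were called higher in this comparison and 4 of them in knockdown cells, and their part in the members' values was not tested.

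In knockdown cells SR-3420 gave no call among the members. None of the 32 was called by edgeR, none had an unadjusted p under 0.05, and DESeq2 called none of the 22 for which it gave an adjusted p, while 0.698% of all genes were higher and 0.0688% lower. The largest values were those of Mvd at 0.65 (95% confidence interval -0.08 to 1.38) and Insig1 at 0.44 (95% confidence interval -0.05 to 0.93), and the median of the sterol arm was 0.12. For Ebp, the sterol isomerase with the third smallest p, the values were 15.1, 28.6 and 19.3 CPM in DMSO and 32.5, 23.8 and 22 CPM in SR-3420, and the groups overlapped.

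In rescued cells SR-3420 lowered 4 members, Acly, Fdps, Mvd and Pmvk, and raised none, against 3.37% of all genes lower and 6.53% higher. All 15 sterol genes had negative fold changes, with a median of -0.55 beside -0.01 over all genes, of which 51.4% were negative. Without SR-3420 replicate 1, 14 of the 15 were negative, with Lss at 0.05, and the median was -0.48. The calls rested on few libraries. Without SR-3420 replicate 1, the library that stood apart, Acly alone was called (-0.71, adjusted p 0.00692), and Fdps (-0.45, 0.174), Mvd (-1.48, 0.0988) and Pmvk (-0.65, 0.15) were not. Without DMSO replicate 1 the count was 1 and without SR-3420 replicate 3 it was 2, while Fdps was also lost without DMSO replicate 2 and Pmvk without DMSO replicate 3 or SR-3420 replicate 2 and with DESeq2. With replicate number as a block, 7 members were called lower (Acly, Scd2, Fdps, Mvd, Mvk, Pmvk and Hsd17b7) and Acacb higher (0.58, adjusted p 0.00115), against 5.58% and 9.83% of all genes in that fit. In this comparison 6 of the 10 brown adipocyte markers were called higher and none lower, and their part in the members' values was not tested.

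Comparing the agonist with the ligand in rescued cells, 5 members were higher in ISO (Hsd17b7, Scd1, Acaca, Pmvk and Elovl5) and 3 lower (Mlxipl, Acacb and Fads2), against 10.4% and 9.43% of all genes. The median of the sterol arm was 0.20, beside -0.03 over all genes, and 0.06 without SR-3420 replicate 1. Hsd17b7, Scd1, Mlxipl and Acaca were called in all 6 fits that left out a library. Without SR-3420 replicate 1, 6 members were called, as Pmvk, Acacb and Elovl5 lost their calls (adjusted p 0.0571, 0.0796 and 0.0603) and Insig1 was called lower in ISO (-0.73, adjusted p 0.036). Acacb was lost as well without ISO replicate 2 or SR-3420 replicate 3, Pmvk without ISO replicate 2 or 3 or SR-3420 replicate 2, and Fads2 without ISO replicate 1 or 3 or SR-3420 replicate 2 (adjusted p up to 0.363). DESeq2 also lost Acacb and Fads2, and library totals Fads2. The treatments differ in kind and in dose, 10 nM against 20 µM, and this comparison sets the 2 conditions side by side as used. Of the brown adipocyte markers, 4 of 10 were called higher in ISO and none lower, and their part in the members' values was not tested.

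In DMSO, no member was called between rescued and knockdown cells by edgeR or DESeq2, 6 had an unadjusted p under 0.05, and 0.0884% of all genes were lower and 1.09% higher. The fold changes of 26 of the 32 were negative, with a median of -0.19 beside 0.00 over all genes. Under ISO 18 members were lower with Dox than without and none was higher, against 4.82% of all genes lower and 7.92% higher. They were 12 of the 15 sterol genes, 5 fatty acid genes (Scd2, Acly, Fasn, Fads1 and Acaca) and Srebf2. Mvd, Mvk and Idi1 of the mevalonate and isoprenoid steps had the largest log2 differences, -1.97, -1.81 and -1.63. All 15 sterol genes had negative values, with a median of -1.27, beside -0.01 over all genes. They stayed negative in each fit that left out 1 library. In fits that left out 1 library, 13 of the 18 calls were never lost. Acaca was lost without any 1 of the knockdown ISO libraries or rescued ISO replicate 1 or 2, Sqle and Lss without replicate 1 of either ISO group, Nsdhl without replicate 1 of either or knockdown replicate 3, and Stard4 without replicate 1 of either or rescued replicate 2 (adjusted p up to 0.168, 0.0871, 0.18, 0.135 and 0.106). The count was 13 without replicate 1 of either ISO group. Library totals as the only scaling also lost Acaca, and DESeq2 Lss. With replicate number as a block, Insig1 (-0.52, adjusted p 0.0483), Fads2 (-0.49, 0.00948) and Dhcr7 (-0.66, 0.033) joined the lower genes. In the opposite direction, 7 of the 10 brown adipocyte markers were higher with Dox under ISO, and none of the 5 tested preadipocyte or fibroblast markers was called, and the part of either list in the members' values was not tested.

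Under SR-3420, 11 members were lower with Dox and none higher, against 4.28% and 7.26% of all genes. They were 8 sterol genes (Mvd, Fdps, Hsd17b7, Cyp51, Dhcr7, Mvk, Pmvk and Nsdhl) and Acly, Scd2 and Fads1, the largest log2 difference was that of Mvd, -2.35, and the median of the sterol arm was -0.92 beside 0.00 over all genes. Without SR-3420 with Dox replicate 1 that median was -0.63, with all 15 values still negative. In that fit 7 members were called, and Scd2, Mvk, Nsdhl and Hsd17b7 were not (adjusted p 0.134, 0.124, 0.173 and 0.0679). Scd2 was lost also without knockdown replicate 2 or rescued replicate 3, Mvk without knockdown replicate 1 or rescued replicate 3, Hsd17b7 without knockdown replicate 1, and Nsdhl without knockdown replicate 1 or 2 or rescued replicate 2 or 3. DESeq2 also lost Mvk and Nsdhl. Of the brown adipocyte markers, 4 of 10 were called higher and none lower, with a part in these values that was not tested.

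**Figure D2:**
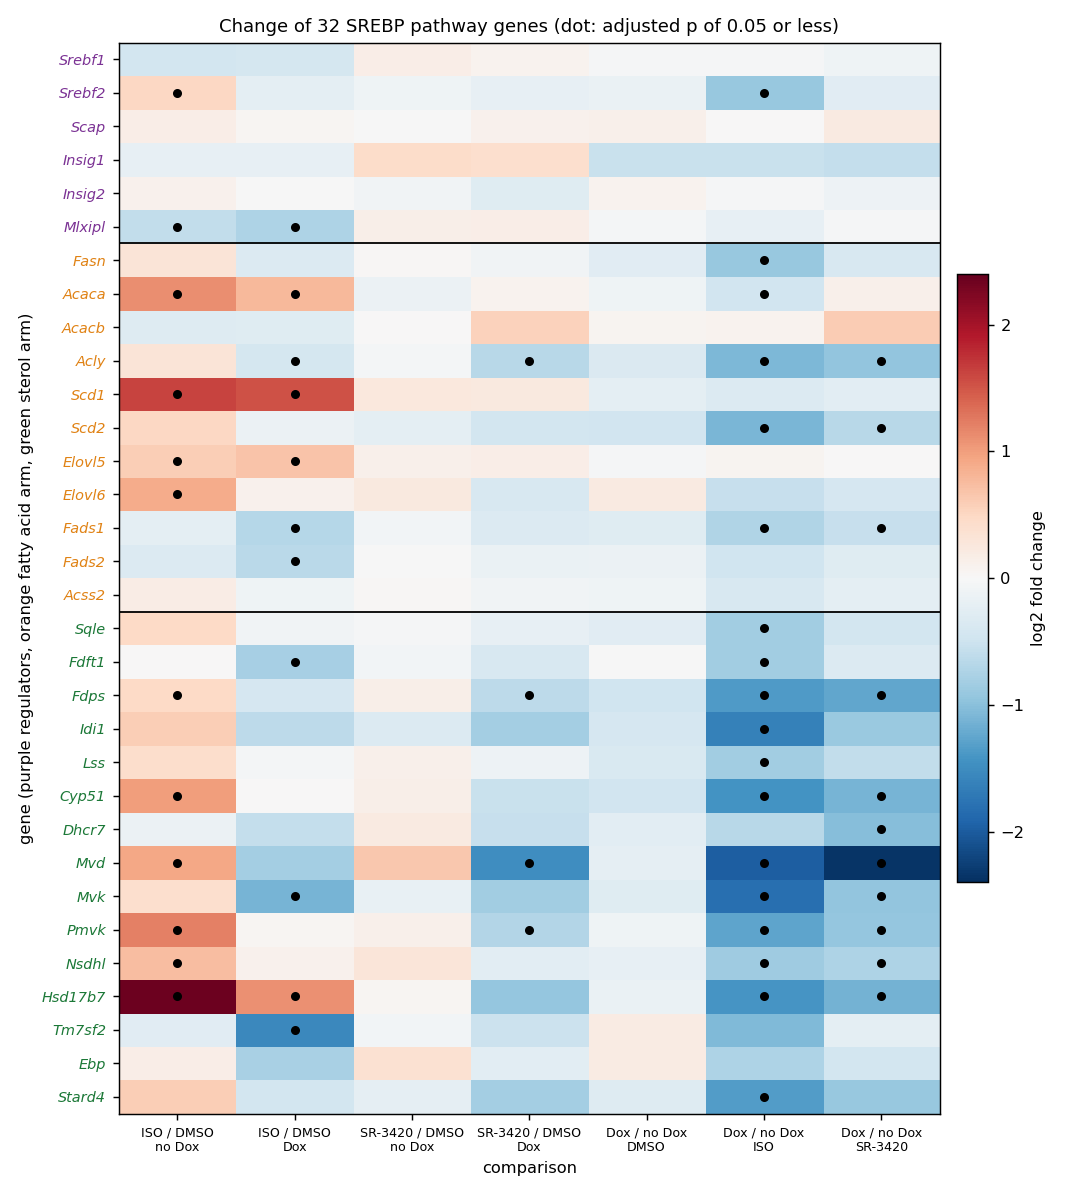
Log2 fold change (colour) of the 32 genes (rows, in the order regulators, fatty acid arm, sterol arm) in 7 comparisons (columns), with a dot where the adjusted p was 0.05 or less. The column for Dox against no Dox in ISO carries 18 dots, 12 of them in the sterol rows, and the column for SR-3420 without Dox carries none.

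Whether the response to ISO differed between the states was tested by the interaction. For 5 members the response was lower with Dox, by the log2 difference of Mvk (-1.52, SE 0.38, edgeR adjusted p 0.0269), Pmvk (-1.16, adjusted p 0.0313), Acly (-0.74, 0.0404), Fdps (-0.88, 0.0425) and Hsd17b7 (-1.26, 0.0479). None had a higher response, against 0.57% of all genes lower and 1.61% higher. All 15 sterol genes had a negative interaction, with a median of -0.99, beside -0.01 over all genes, of which 51.2% were negative. Each of the 5 calls was near the threshold and depended on the scaling and on single libraries. With replicate number as a block 11 members were called lower, adding Srebf2 (-0.73, adjusted p 0.00281), Fasn (-0.65, 0.0147), Scd2 (-0.66, 0.0142), Fdft1 (-0.80, 0.00714), Cyp51 (-0.95, 0.00732) and Mvd (-1.72, 0.00699), against 1.83% of all genes lower and 4.07% higher in that fit, although not every same-numbered pair correlated over 0.1 here. DESeq2 called 6 of the 24 members for which it gave an adjusted p, all lower, and gave none for Mvk. With library totals as the only scaling, none was called, and in fits that left out a library the adjusted p ran up to 0.0854 for Mvk and 0.192 for Hsd17b7. Counted over all members, no call was made without knockdown ISO replicate 1 or rescued DMSO replicate 1. Only 1 member was called without knockdown DMSO replicate 2, knockdown ISO replicate 3, rescued DMSO replicate 3, or rescued ISO replicate 1 or 3. Without knockdown ISO replicate 3 that member was Cyp51, so none of the 5 was called there. There were 2 without knockdown DMSO replicate 1 (Mvd and Hsd17b7) and 3 without knockdown DMSO replicate 3 (Fdft1, Mvk and Pmvk). Without rescued ISO replicate 2 there were 9. Of the 10 brown adipocyte markers, 2 had a higher response with Dox and none a lower one. Scd1, the gene of the fatty acid arm with the largest response to ISO, had an interaction of -0.09 (95% confidence interval -0.78 to 0.59).

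For SR-3420 no member passed the interaction test by edgeR, while 7 had an unadjusted p under 0.05 and DESeq2 called 1, against 0.216% of all genes lower and 0.54% higher. The largest value was that of Mvd, -2.14 (SE 0.56, edgeR adjusted p 0.0657). Again all 15 sterol genes were negative, with a median of -0.63, and without SR-3420 with Dox replicate 1 all 15 were negative with a median of -0.51. Leaving out knockdown DMSO replicate 1 or knockdown SR-3420 replicate 2 brought 1 member past the threshold. The comparisons within a state share their DMSO libraries, and the interaction draws on the libraries of both states, so the counts and directions above are given comparison by comparison and not set against each other.

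**Figure D3:**
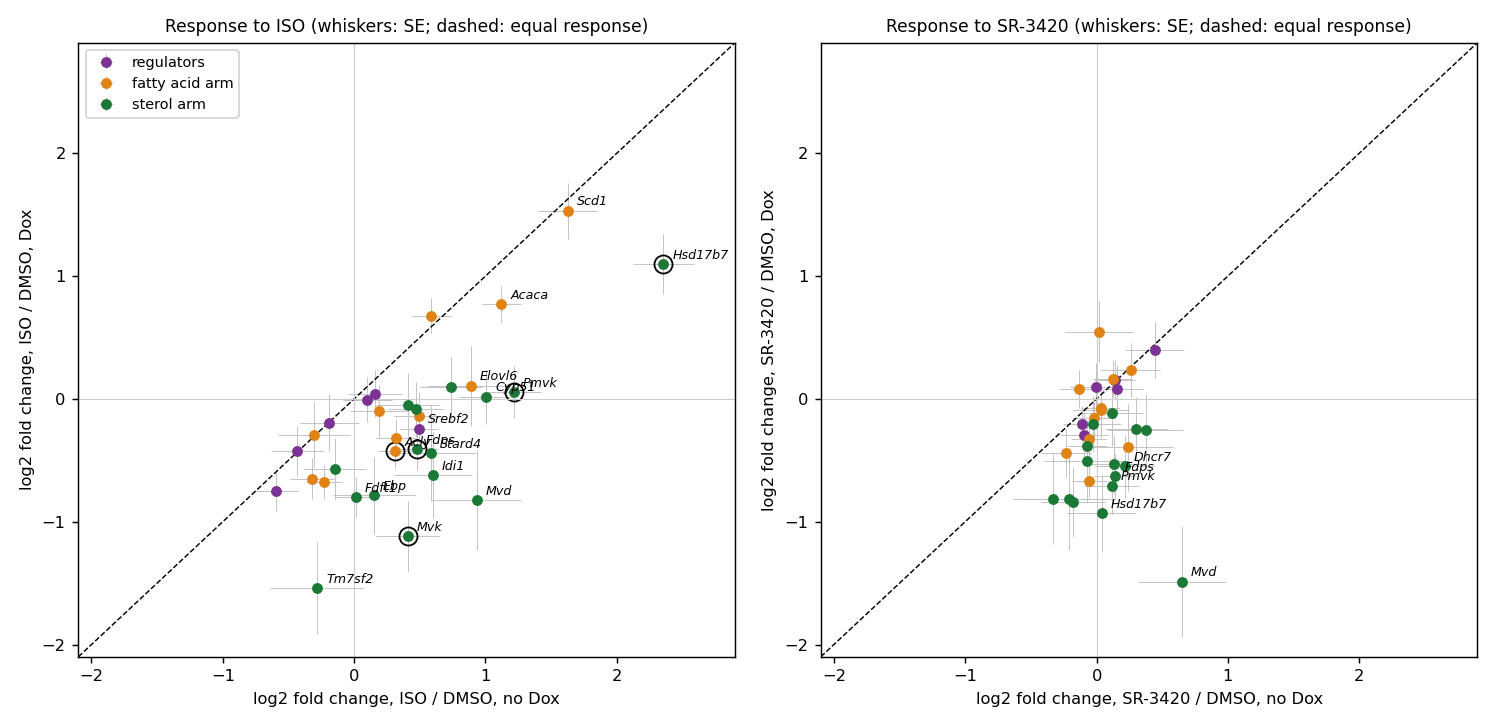
Log2 fold change in rescued cells (Dox, y axis) against that in knockdown cells (x axis) for ISO (left) and SR-3420 (right), 1 point per gene coloured by arm, with whiskers of 1 SE and a circle where the interaction had an adjusted p of 0.05 or less. All 15 sterol genes lie below the dashed line of equal response in both panels, and 5 genes are circled for ISO.

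The regulators were measured at widely different levels. In DMSO without Dox the mean CPM was 1407 for Srebf1, 595 for Insig1 and 251 for Srebf2 (n = 3). Per kilobase counted, the values were 82.4 ± 22.3, 129 ± 24.2 and 5.61 ± 0.74 CPM (SD, n = 3). Counted lengths mostly followed intron length and the spliced share is not settled, so levels per kilobase do not rank the genes. Srebf2 (NM_033218, chromosome 15, 81977699 to 82035390, plus strand of mm9) gave 284, 218 and 251 CPM in DMSO, 408, 322 and 333 CPM in ISO and 247, 228 and 224 CPM in SR-3420 without Dox. In rescued cells it gave 257, 208 and 202 CPM in DMSO, 186, 219.8 and 162 CPM in ISO and 204, 213 and 167 CPM in SR-3420. Its 3 knockdown ISO libraries were the highest of the 18, and its log2 fold change under ISO was 0.49 (SE 0.14, edgeR adjusted p 0.0114) without Dox and -0.24 (95% confidence interval -0.56 to 0.08) with Dox. Between the states under ISO, Srebf2 differed by -0.90 (SE 0.15, edgeR adjusted p 5.14e-05), with no overlap, and its interaction was -0.73 (adjusted p 0.057), short of the threshold without a block and past it with one (0.00281).

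Srebf1 (NM_011480, chromosome 11, 60012591 to 60034106, minus strand of mm9) gave 1059.7, 1813 and 1347 CPM in DMSO, 781, 1230.3 and 1108 CPM in ISO and 1422, 1757 and 1509.5 CPM in SR-3420 without Dox. Cells with Dox gave 1198, 1556 and 1359 CPM in DMSO, 778, 1226 and 1059.8 CPM in ISO and 1241, 1680.2 and 1417 CPM in SR-3420. ISO gave log2 fold changes of -0.43 and -0.42 without and with Dox (edgeR adjusted p 0.111 and 0.107), neither past the threshold, with overlapping groups, though with replicate number as a block both passed (adjusted p 0.00932 and 0.00595). Under SR-3420 the values were 0.15 (95% confidence interval -0.28 to 0.59) and 0.08 (95% confidence interval -0.36 to 0.52). In each of the 6 groups replicate 1 was the lowest. The counts do not separate its isoforms, of which SREBP1c is the one tied to fatty acid synthesis.

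Insig1, whose product retains SCAP and which is itself a classic SREBP target, gave 686, 471 and 628 CPM in DMSO, 655, 361 and 555 CPM in ISO and 965, 659 and 806 CPM in SR-3420 without Dox. After Dox the levels were 489, 354 and 388 CPM in DMSO, 284, 447 and 348 CPM in ISO and 423, 804 and 406 CPM in SR-3420. Under SR-3420 its log2 fold changes were 0.44 and 0.40, and with Dox its log2 differences were -0.53 in DMSO, -0.54 in ISO and -0.57 in SR-3420, and the fit without a block called none of these. In SR-3420 with Dox its 3 libraries ranged from 406 to 804 CPM. Insig2, its paralog, gave 67.6, 95.2 and 67 CPM in DMSO, 53, 109 and 79.6 CPM in ISO and 67.9, 74.3 and 69.8 CPM in SR-3420 without Dox. The rescued groups held 72.7, 86.4 and 82 CPM in DMSO, 84.2, 77.2 and 76 CPM in ISO and 67.7, 65.6 and 60.9 CPM in SR-3420, and its log2 fold changes ran from -0.30 in SR-3420 with Dox to 0.29 in ISO against SR-3420 with Dox, none called. Scap, the escort protein, was measured at 48.5 ± 1.11 CPM in DMSO without Dox (SD, n = 3) and was not called in any comparison.

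Mlxipl was the regulator that ISO lowered in both states. It gave 159, 184 and 194 CPM in DMSO, 95.1, 109 and 146 CPM in ISO and 214, 158 and 219 CPM in SR-3420 without Dox. With Dox, the values were 174, 157 and 184 CPM in DMSO, 108, 89.8 and 111 CPM in ISO and 212, 159 and 204 CPM in SR-3420. Each ISO library was below each DMSO and SR-3420 library of its state. The log2 fold changes were -0.60 (SE 0.16, edgeR adjusted p 0.00748) and -0.75 (SE 0.16, edgeR adjusted p 0.000795), the first of which was lost without ISO replicate 1 (adjusted p 0.0637), and the interaction was -0.15 (95% confidence interval -0.66 to 0.36). Against SR-3420 with Dox, ISO gave a log2 difference of -0.90 (edgeR adjusted p 0.00019).

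In the fatty acid arm, Scd1, the desaturase that makes oleate from stearate, had the highest mean CPM in every group. In DMSO without Dox it stood at 2458 ± 372 CPM (SD, n = 3). Per kilobase counted, Scd1, Scd2 and Fasn stood there at 292 ± 44.1, 92 ± 12.9 and 27.4 ± 3.46 CPM (SD, n = 3). The limit on levels per kilobase given above holds here too. Scd1 (NM_009127, chromosome 19, 44468940 to 44482199, minus strand of mm9) gave 2385, 2861 and 2128 CPM in DMSO, 9207, 6515 and 7018 CPM in ISO and 2894, 2942 and 2989 CPM in SR-3420 without Dox. In rescued cells it gave 1847, 2442 and 1989.7 CPM in DMSO, 5367, 7066 and 5722 CPM in ISO and 2158, 3445 and 1789.6 CPM in SR-3420. All 6 ISO libraries exceeded all 12 others, and the log2 fold changes were 1.63 (SE 0.23, edgeR adjusted p 3.45e-06) and 1.53 (SE 0.23, edgeR adjusted p 5.54e-06). Under SR-3420 the values were 0.26 (95% confidence interval -0.23 to 0.74) and 0.24 (95% confidence interval -0.25 to 0.72).

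Acaca, the cytosolic acetyl-CoA carboxylase that makes malonyl-CoA for fatty acid synthesis, was also highest in ISO in both states. It gave 160.2, 207 and 173 CPM in DMSO, 427, 372 and 371 CPM in ISO and 175, 166 and 147 CPM in SR-3420 without Dox. Cells with Dox gave 136, 180.1 and 189.9 CPM in DMSO, 282, 251 and 321 CPM in ISO and 144, 188 and 198 CPM in SR-3420. The ISO libraries again did not overlap those of DMSO or SR-3420, with log2 fold changes of 1.12 (SE 0.15, edgeR adjusted p 1.68e-06) and 0.77 (SE 0.15, edgeR adjusted p 0.000213). Rescued cells under ISO were lower than knockdown cells (log2 difference -0.45, edgeR adjusted p 0.0339), a call that 5 of 6 fits without 1 library lost. Its mitochondrial partner Acacb lay between 51.2 and 162 CPM, with SR-3420 with Dox at 160.0, 110.4 and 162 CPM and ISO with Dox at 95.9, 51.2 and 96.3 CPM.

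Acly makes cytosolic acetyl-CoA from citrate, which feeds both arms. It gave 343, 313 and 361 CPM in DMSO, 493, 341 and 434 CPM in ISO and 381, 299 and 299.7 CPM in SR-3420 without Dox. After Dox the levels were 287, 249 and 267 CPM in DMSO, 203, 195 and 202 CPM in ISO and 179, 157 and 171 CPM in SR-3420. All 9 rescued libraries were below all 9 knockdown libraries, and among rescued cells each library in ISO or SR-3420 was below each in DMSO. The log2 difference with Dox was -0.34 in DMSO (adjusted p 0.381), -1.08 (SE 0.14, edgeR adjusted p 2.26e-06) in ISO and -0.95 (SE 0.14, edgeR adjusted p 2.42e-05) in SR-3420. SR-3420 with Dox lowered it (log2 fold change -0.67, edgeR adjusted p 0.00206), a call kept in every fit that left out a library.

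Fasn, the fatty acid synthase, gave 208, 268 and 234 CPM in DMSO, 324, 273 and 285 CPM in ISO and 234, 245 and 245 CPM in SR-3420 without Dox. The rescued groups held 162, 215 and 215 CPM in DMSO, 128, 191 and 148 CPM in ISO and 161, 218 and 178 CPM in SR-3420. ISO gave 0.32 (adjusted p 0.12) without and -0.32 (0.115) with Dox, neither past the threshold. Under ISO the states did not overlap, with a difference of -0.91 (SE 0.15, edgeR adjusted p 9.45e-05), while the interaction of -0.64 had an adjusted p of 0.123, and of 0.0147 with a block.

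Scd2, a second desaturase of the same family, gave 634, 824 and 678 CPM in DMSO, 981, 1019 and 998 CPM in ISO and 563, 668 and 583 CPM in SR-3420 without Dox. With Dox, the values were 429, 633 and 493 CPM in DMSO, 333, 609.6 and 465 CPM in ISO and 301, 517 and 326 CPM in SR-3420. In knockdown cells each ISO library exceeded each DMSO library, at a log2 fold change of 0.49 with an edgeR adjusted p of 0.0535. It was lower with Dox under ISO (-1.09, adjusted p 0.000177) and under SR-3420 (-0.67, 0.0218). Scd1 and Scd2 are neighbouring paralogs with similar sequence, and reads that could stem from either are uncertain.

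Elovl6, which elongates palmitate to stearate, had the lowest mean CPM of the arm in every group. It gave 16.9, 8.16 and 18.3 CPM in DMSO, 39.98, 19.8 and 24.8 CPM in ISO and 21.5, 12.2 and 19.6 CPM in SR-3420 without Dox. In rescued cells it gave 16.4, 17.7 and 19.1 CPM in DMSO, 17.5, 19.7 and 19.3 CPM in ISO and 20.2, 6.96 and 12 CPM in SR-3420. The call in knockdown cells under ISO (0.89, adjusted p 0.047) was lost in 5 of 6 fits without 1 library. Elovl5, an elongase of polyunsaturated fatty acids, rose under ISO in both states, with log2 fold changes of 0.59 (SE 0.15, edgeR adjusted p 0.00377) and 0.68, the first of which was not called with library totals as the only scaling (adjusted p 0.0951). The desaturases Fads1 and Fads2, which act on the same fatty acids, fell under ISO with Dox, with log2 fold changes of -0.68 (edgeR adjusted p 0.000405) and -0.65 (0.00352), and gave -0.23 and -0.32 without Dox, where neither was called. Acss2, which makes acetyl-CoA from acetate, was between 29.9 and 72.4 CPM and was not called in any comparison.

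**Figure D4:**
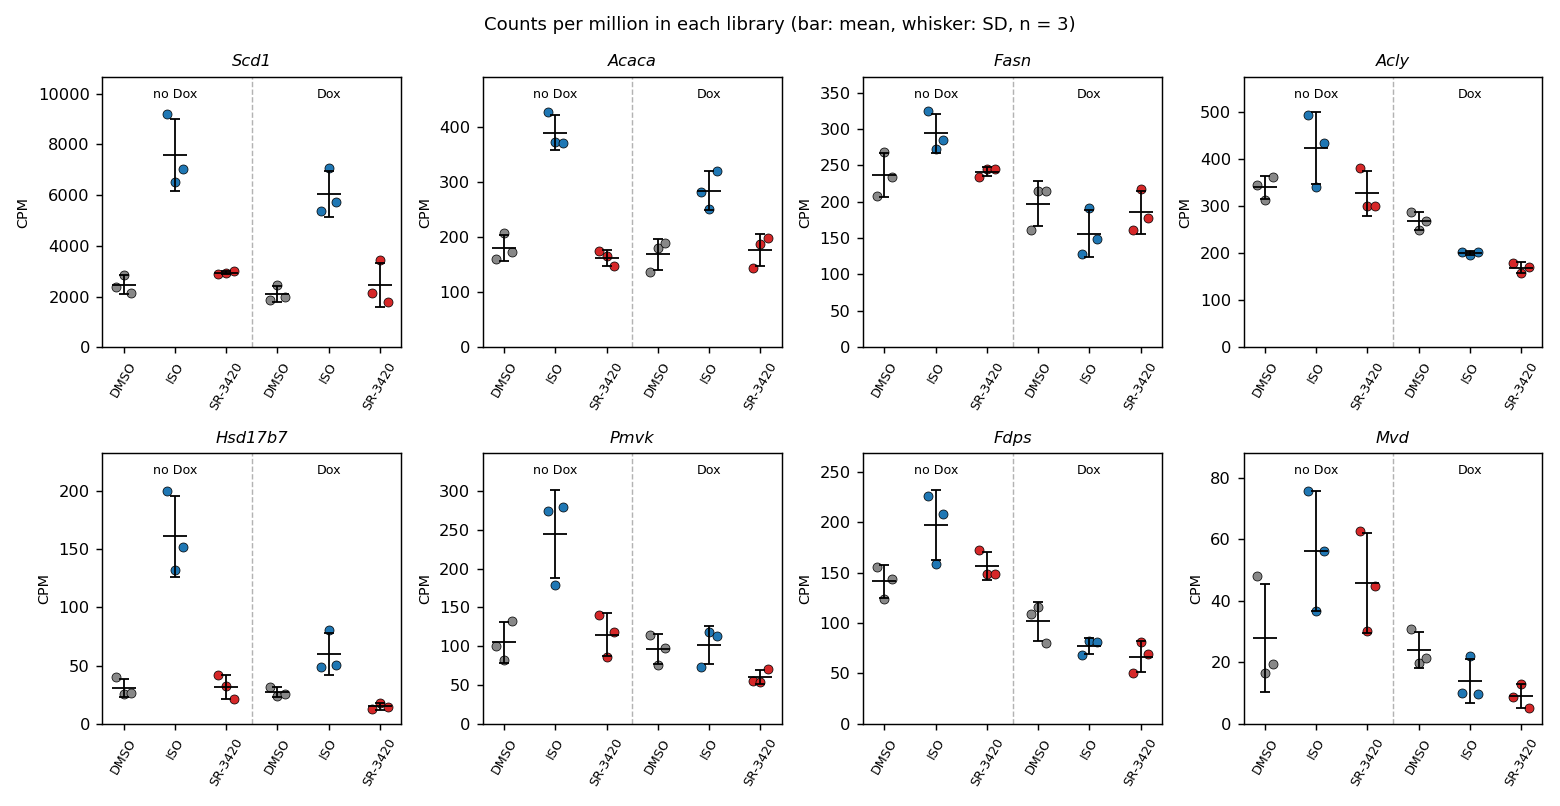
CPM (y axis) in each library for Scd1, Acaca, Fasn and Acly of the fatty acid arm and Hsd17b7, Pmvk, Fdps and Mvd of the sterol arm, for DMSO, ISO and SR-3420 without and with Dox. Points are libraries, bars means and whiskers SDs of 3 libraries, and Scd1 is raised by ISO in both states whereas Fdps and Mvd are lowest in rescued cells under ISO and SR-3420.

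The promoters of the members were searched for the motifs that SREBPs, NF-Y, ChREBP-type E-box factors and cAMP-responsive factors are known to bind. RefSeq promoters on GRCm38.p6, each with 250 bases before and 50 after a gene's start, were matched by symbol for 25 of the 32 members (34 promoters) and 7808 of the genes tested. The sequence CCAAT, on either strand, was present in at least 1 promoter of 21 of the 25 members (84%), including all 11 sterol genes matched, and of 43.2% of tested genes (37.4% of all 32851 promoters). Counting promoters, it lay between 40 and 120 bases before the start in 9 of 14 sterol promoters (64.3%) and in 19.7% of those of tested genes. The E-box CACGTG was present in 6 of the 25 members (24%) and 12.1% of tested genes (7.15% of all promoters). The sterol element as TCACNCCAC was found for Mlxipl alone, against 1.41% of tested genes (1.24% of all promoters), and its core CACCCCAC for no member, against 3.84% (2.87%). The full cAMP element TGACGTCA was found for Elovl5 alone, against 3.65% of tested genes (1.79% of all promoters), and TGACG, which is contained in it, for 8 members (32%) against 36.8% (20.8%). These are matches of letters in a window and say nothing on binding.

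The 250 bases before the start are printed for 3 sterol genes with large values, Hsd17b7 for its rise under ISO in knockdown cells, Mvk for its interaction under ISO, the largest called by edgeR, and Mvd for the difference between the states, each 5′ to 3′ in the direction of the gene. They are chr1:169969206-169969455 (minus strand), chr5:114444019-114444268 (plus strand) and chr8:122443423-122443672 (minus strand) of GRCm38.p6. Capitals mark CCAAT or its reverse complement ATTGG, and in Hsd17b7 also the E-box CACGTG.
Hsd17b7: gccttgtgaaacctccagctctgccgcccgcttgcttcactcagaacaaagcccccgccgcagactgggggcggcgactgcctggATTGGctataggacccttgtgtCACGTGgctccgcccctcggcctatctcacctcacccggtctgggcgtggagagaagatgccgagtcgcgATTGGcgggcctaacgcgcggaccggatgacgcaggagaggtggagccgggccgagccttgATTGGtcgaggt
Mvk: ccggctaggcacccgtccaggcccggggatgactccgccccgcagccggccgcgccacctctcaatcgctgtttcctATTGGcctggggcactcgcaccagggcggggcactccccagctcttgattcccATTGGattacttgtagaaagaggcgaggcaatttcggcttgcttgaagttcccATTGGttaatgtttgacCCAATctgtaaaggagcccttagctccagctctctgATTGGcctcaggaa
Mvd: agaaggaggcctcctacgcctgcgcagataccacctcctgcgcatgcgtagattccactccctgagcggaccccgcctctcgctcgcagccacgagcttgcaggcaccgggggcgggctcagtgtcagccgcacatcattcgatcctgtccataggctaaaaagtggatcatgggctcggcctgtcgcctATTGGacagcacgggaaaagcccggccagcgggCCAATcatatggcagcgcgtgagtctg
Hsd17b7 holds 3 CCAAT matches and 1 E-box, Mvk 5 CCAAT matches and Mvd 2.

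The early steps of the sterol arm turn mevalonate into isoprenoid units. Mvk, the mevalonate kinase (NM_023556, chromosome 5, 114894315 to 114910599, plus strand of mm9), gave 29.4, 39.4 and 38.6 CPM in DMSO, 57.3, 36.7 and 47.3 CPM in ISO and 38.3, 26.1 and 29 CPM in SR-3420 without Dox. Cells with Dox gave 28.9, 21.9 and 37.1 CPM in DMSO, 18.3, 12.6 and 8.66 CPM in ISO and 13.2, 20.9 and 15 CPM in SR-3420. The ISO and DMSO libraries overlapped in knockdown cells, and in rescued cells each ISO library was below each DMSO library, with log2 fold changes of 0.41 (adjusted p 0.221) and -1.12 (SE 0.29, edgeR adjusted p 0.00352). It was lower with Dox in ISO (-1.81, edgeR adjusted p 2.2e-05) and in SR-3420 (-0.94, 0.0222).

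Pmvk, which adds the next phosphate, gave 99.7, 81.6 and 133 CPM in DMSO, 274, 179 and 280.0 CPM in ISO and 139.9, 85.4 and 118 CPM in SR-3420 without Dox. After Dox the levels were 115, 76 and 97.7 CPM in DMSO, 73.4, 118 and 114 CPM in ISO and 55.4, 53.7 and 70.9 CPM in SR-3420. In knockdown cells ISO raised it without overlap, at 1.21 (SE 0.21, edgeR adjusted p 5.13e-05) on the log2 scale, and in rescued cells ISO gave 0.05 (95% confidence interval -0.41 to 0.52). SR-3420 with Dox was lower than DMSO in every library (-0.71, edgeR adjusted p 0.0461) and lower than SR-3420 without Dox (-0.93, 0.00534).

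Mvd, the decarboxylase that ends this stretch (NM_138656, chromosome 8, 124957496 to 124967322, minus strand of mm9), gave 48, 16.3 and 19.3 CPM in DMSO, 75.6, 36.7 and 56.3 CPM in ISO and 62.7, 30.2 and 44.7 CPM in SR-3420 without Dox. The rescued groups held 30.8, 19.8 and 21.3 CPM in DMSO, 10.00, 22.1 and 9.63 CPM in ISO and 8.79, 12.9 and 4.99 CPM in SR-3420. Its counts were low, 5 to 108 per library, and the spread within groups was wide. It had the largest differences between the states of all members, -1.97 (SE 0.37, edgeR adjusted p 0.000329) in ISO and -2.35 (SE 0.41, edgeR adjusted p 0.000196) in SR-3420, both without overlap. An annotated gene on the other strand, Gm20388, covers its whole span, and the counting is not stated to use strand, so reads of the pair cannot be told apart.

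Idi1, the isomerase of the isoprenoid units, gave 42.7, 23.1 and 26.4 CPM in DMSO, 72.4, 37.7 and 36 CPM in ISO and 28.4, 26.1 and 19.6 CPM in SR-3420 without Dox. With Dox, the values were 27, 28.1 and 13.5 CPM in DMSO, 15, 16.5 and 14.4 CPM in ISO and 7.91, 21.9 and 11 CPM in SR-3420. Under ISO it was lower with Dox without overlap, at a log2 difference of -1.63 (SE 0.32, edgeR adjusted p 0.000624). Fdps, the farnesyl diphosphate synthase (NM_001253751, chromosome 3, 88897510 to 88905889, minus strand of mm9), gave 156, 124 and 144 CPM in DMSO, 226, 159 and 208 CPM in ISO and 172, 149 and 148 CPM in SR-3420 without Dox. In rescued cells it gave 109, 116 and 79.8 CPM in DMSO, 68.4, 81.9 and 80.9 CPM in ISO and 50.1, 80.5 and 68.9 CPM in SR-3420. All 9 rescued libraries were below all 9 knockdown libraries, with log2 differences of -0.47 in DMSO (adjusted p 0.263), -1.36 (SE 0.17, edgeR adjusted p 1.13e-06) in ISO and -1.24 (SE 0.17, edgeR adjusted p 8.08e-06) in SR-3420.

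The next steps make squalene and oxidise it. Fdft1, the squalene synthase, gave 163, 149.6 and 195 CPM in DMSO, 209.7, 147 and 158 CPM in ISO and 181, 143 and 160.1 CPM in SR-3420 without Dox. Cells with Dox gave 168, 148 and 188 CPM in DMSO, 75, 113 and 101 CPM in ISO and 121, 132 and 133 CPM in SR-3420. ISO gave log2 fold changes of 0.01 (95% confidence interval -0.33 to 0.35) in knockdown cells and -0.80 (SE 0.16, edgeR adjusted p 0.000325) in rescued cells, with all ISO libraries below DMSO, and the interaction was -0.81 with an adjusted p of 0.0533, and of 0.00714 with a block. Sqle, the epoxidase, gave 116, 95.2 and 78.1 CPM in DMSO, 169, 131 and 107 CPM in ISO and 94.6, 113 and 75.3 CPM in SR-3420 without Dox. After Dox the levels were 77, 92.6 and 71.9 CPM in DMSO, 45, 103 and 78 CPM in ISO and 66.8, 79.5 and 62.9 CPM in SR-3420. Its libraries did not overlap between the states in ISO, where the log2 difference was -0.83 (edgeR adjusted p 0.00847). Lss, which closes the ring to lanosterol, differed there by -0.83 (adjusted p 0.0238), and a gene annotated on the other strand overlaps over 10% of its span.

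Among the later steps, Hsd17b7, a sterol ketoreductase (NM_010476, chromosome 1, 171879668 to 171899336, minus strand of mm9), had the largest log2 fold change under ISO of all 32 genes in knockdown cells. It gave 40.04, 25.8 and 26.4 CPM in DMSO, 199.9, 132 and 152 CPM in ISO and 41.8, 31.9 and 21.2 CPM in SR-3420 without Dox. The rescued groups held 31.8, 23.9 and 25.8 CPM in DMSO, 48.4, 80.3 and 50.1 CPM in ISO and 12.3, 17.9 and 14 CPM in SR-3420. ISO raised it without overlap in both states, with log2 fold changes of 2.35 (SE 0.23, edgeR adjusted p 7.67e-09) and 1.10 (SE 0.24, edgeR adjusted p 0.000916), and the rescued ISO libraries lay between the DMSO and the knockdown ISO libraries. SR-3420 with Dox was below DMSO in each library, at -0.93 with an adjusted p of 0.0569.

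Cyp51, the lanosterol demethylase, rose under ISO in knockdown cells (log2 fold change 1.01, edgeR adjusted p 0.000455), and gave 0.02 (95% confidence interval -0.46 to 0.50) in rescued cells, with a log2 difference between the states of -1.44 under ISO (1e-05). Nsdhl, a sterol dehydrogenase, rose by 0.74 in knockdown cells under ISO (adjusted p 0.0208). Tm7sf2, a sterol reductase, fell under ISO with Dox, from 20.2, 14.6 and 16.9 CPM to 2.5, 5.51 and 10.6 CPM (-1.54, adjusted p 0.0022), at 3 to 42 counts per library. Ebp gave 19.7, 30.2 and 21.3 CPM in DMSO, 7.5, 18.9 and 13.5 CPM in ISO and 22, 17.9 and 18 CPM in SR-3420 with Dox and 29.2, 20.8 and 18.8 CPM in ISO without, and was not called by the fit without a block. Dhcr7, the last reductase of cholesterol synthesis, was lower with Dox in SR-3420 (log2 difference -1.02, edgeR adjusted p 0.00533).

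Stard4, a cholesterol transfer protein and SREBP target, gave 35.6, 12.2 and 24.3 CPM in DMSO, 54, 29.7 and 31.5 CPM in ISO and 30.8, 19.2 and 14.1 CPM in SR-3420 without Dox. With Dox, the values were 24.6, 14.6 and 19.1 CPM in DMSO, 10.8, 12.6 and 22.1 CPM in ISO and 6.15, 18.9 and 9.99 CPM in SR-3420. Under ISO it was lower with Dox without overlap (-1.34, SE 0.36, edgeR adjusted p 0.012) and lost that call without replicate 1 of either ISO group or rescued ISO replicate 2. Its counts, 7 to 53 per library, limit how small a change could be detected.

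Of 28 further genes of sterol and fatty acid metabolism listed for comparison, 22 were tested. Under ISO without Dox 5 were higher and 5 lower, against 14.5% and 13.5% of all genes, and with Dox 4 were higher and 1 lower, against 16.4% and 16.1%. SR-3420 raised 1 without Dox, against 0.698% of all genes, and with Dox raised 5 and lowered 3, against 6.53% and 3.37%. In rescued cells ISO against SR-3420 gave 2 higher and 2 lower, close to the 10.4% and 9.43% of all genes. Dox gave no call in DMSO, 5 higher and 3 lower in ISO, against 7.92% and 4.82%, and 4 higher and 5 lower in SR-3420, against 7.26% and 4.28%. The interaction was positive for 2 genes under ISO, against 1.61%, and called for none under SR-3420. The sterol enzymes Msmo1 and Sc5d were among the genes lower with Dox in ISO, with log2 differences of -1.53 (edgeR adjusted p 2.53e-05) and -1.05 (0.014). Msmo1 was also lower under SR-3420 than DMSO with Dox, at -0.84 (adjusted p 0.0413). Acat2, which makes acetoacetyl-CoA at the head of the pathway, rose under ISO in both states, with log2 fold changes of 0.95 and 0.86. Genes of other roles had other patterns. The elongation enzyme gene Hsd17b12 rose under ISO by 0.71 without and 1.94 with Dox, with a positive interaction of 1.24 (adjusted p 0.00317). Nr1h3, the gene of the oxysterol receptor LXRα, fell under ISO without Dox (-1.14, adjusted p 4.03e-07) and gave -0.14 with Dox, where it was not called, with an interaction of 1.00 (0.00322). The sterol exporter gene Abcg1 rose in rescued cells under ISO by 1.02 and under SR-3420 by 0.73, and Mylip, whose product degrades lipoprotein receptors, fell under ISO in both states, with log2 fold changes of -1.32 and -1.38.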

How the data were processed

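According to the study's methods and submitters' processing notes, the authors aligned reads with STAR 2.4.2a to mm9, collapsed reads to 1 per position and length with HOMER, and made the gene table with iRNA-seq. It holds deposited whole-number counts without normalisation. The counts of 18 libraries were scaled by TMM (factors 0.768 to 1.13), filtered with filterByExpr over the 6 groups and fitted with edgeR 4.0.16 quasi-likelihood tests in R 4.3.3, with 1 mean per group (biological coefficient of variation 0.133). The Benjamini-Hochberg adjustment of the two-sided p ran over 10178 genes, with calls at 0.05 or less. Scripts were tested on simulated data. Alternatives were RLE factors, library totals only, no filter, DESeq2 1.42.0, replicate number as a block, a log2 fold change limit of 1, and leaving out each library. The members and lists were chosen with earlier results of these data known. Values are given per library for a fixed set of regulators and enzymes and for members among the 3 smallest p in any comparison. Members called in a comparison could be named with their fold change, and the rest are given by range and count, except Scap and Acss2, named without a call. Same-numbered libraries correlated in their deviations from group means at over 0.1 in all 3 pairs for ISO against DMSO with Dox (0.165 to 0.262), SR-3420 against DMSO without Dox (0.137 to 0.263) and with Dox (0.123 to 0.246), and Dox in ISO (0.128 to 0.252), and the block is taken as pairing there. The pairing comes from these correlations, as the labels do not say what the numbers mark. Gene positions are those of the table on mm9 and promoters those of RefSeq on GRCm38.p6, and the 2 builds were not mixed. Confidence intervals were computed from the SE and the residual degrees of freedom of the 18 libraries.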

Additional observations from a re-analysis of the deposited data

Results flagged for a closer look

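The response to ISO differed between rescued and knockdown cells by the interaction test for 5 members, each with a lower response with Dox, against 0.57% of all genes tested lower and 1.61% higher. The log2 differences were -0.74 for Acly, -0.884 for Fdps, -1.52 for Mvk, -1.16 for Pmvk and -1.26 for Hsd17b7. Acly, Fdps and Mvk had a positive fold change under ISO without Dox and a negative one with Dox, whereas Pmvk (1.21 and 0.05) and Hsd17b7 (2.35 and 1.10) were positive in both states. None of the 5 was called with library totals as the only scaling. The same held without ISO replicate 1 or 3 of the knockdown cells, or without DMSO replicate 1 of the rescued cells. No explanation was tested.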

How the results depend on the processing

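Over 69 called pairs of a member and a comparison, 40 kept their call under all the alternatives other than the fold limit and in all fits that left out 1 library, and none of the 69 changed sign. With library totals only, the median of all genes moved by more than 0.1, to -0.19 for ISO without Dox, -0.16 for ISO with Dox, -0.21 for SR-3420 with Dox, -0.22 for Dox in SR-3420 and -0.14 for the SR-3420 interaction, and under it the members called were 7 rather than 12 for ISO without Dox (5 higher and 2 lower rather than 11 and 1), 4 higher and 11 lower rather than 4 and 7 for ISO with Dox, 8 rather than 4 for SR-3420 with Dox, 17 rather than 11 for Dox in SR-3420, 0 rather than 5 for the ISO interaction and 1 rather than 0 for the SR-3420 interaction. With no filter on low counts the count was 8 for SR-3420 with Dox, 9 for the ISO interaction and 2 for the SR-3420 interaction, and DESeq2 gave 1 for the last. With replicate number as a block the counts were 19 for ISO without Dox, 8 for SR-3420 with Dox, 13 for ISO against SR-3420, 1 for Dox in DMSO (Scd2), 11 for the ISO interaction and 4 for the SR-3420 interaction, and the block moved no other count by over 1.5 times. Outside the 4 comparisons named in the methods, not every same-numbered pair correlated over 0.1. Correlations there ran from 0.0386 to 0.277, and whether these libraries are paired is not settled. A log2 fold change limit of 1 left 5 calls for ISO without Dox, 4 for ISO with Dox, 1 for SR-3420 with Dox, 2 for ISO against SR-3420, 10 for Dox in ISO, 5 for Dox in SR-3420 and 3 for the ISO interaction, as fewer values can pass both criteria. Leaving out each library gave 6 to 13 calls for ISO without Dox, 10 to 13 for ISO with Dox, 1 to 6 for SR-3420 with Dox, 6 to 9 for ISO against SR-3420, 13 to 19 for Dox in ISO, 7 to 13 for Dox in SR-3420, 0 to 9 for the ISO interaction and 0 to 1 for the SR-3420 interaction, and 0 throughout for SR-3420 without Dox and Dox in DMSO. The cause of these shifts was not tested. Members with low counts included Tm7sf2, Mvd, Elovl6 and Stard4, which fell to 3, 5, 6 and 7 counts in their lowest library. A part of depth in their results was not tested.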
